A study of Mus musculus with 6 samples.

Results

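The genes described here are those of mouse chromosome 6 that carried enough reads to be followed by position. They were chosen by 3 criteria in the deposited count table: a first chromosome entry of 6, at least 10 counts in each of 3 or more libraries, and a symbol that does not start with Klr, Igk or Trb (natural killer receptor genes and the segments of an immunoglobulin and a T cell receptor locus, which are joined or varied in single lymphocyte clones). Of 57186 genes in the table, 3231 were on chromosome 6, 983 of those passed the count criterion, and 62 of these (27 Klr, 4 Igk and 31 Trb) were left out, which gave 921 members. The count criterion reads the same libraries as the comparison: 19 members reached 10 counts in every control library and no knockout library, and 1 the reverse, so these had to differ. At the threshold, 66 members reached 10 counts in exactly 3 libraries (median of their highest count 23), and 85 chromosome 6 genes reached it in exactly 2 and stayed out (median of the highest count 18).

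The samples were cells labelled CD45-negative, that is, sorted as lacking the common leukocyte antigen, from tumours grown from MB49, a bladder cancer line of a male mouse. The line carried either a CRISPR knockout of the Y chromosome (Y-KO) or a CRISPR control (Y-Scr), and had been placed subcutaneously in C57Bl/6J hosts. Each genotype had 3 bulk RNA libraries, all with batch label 1. All were poly-A RNA, and the tumours were collected at 1 set size. Whether a genotype was 1 clone or several, and whether replicates came from separate animals, is not in the labels, so a p-value here reflects how far these libraries spread, and that spread may be technical.

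Library totals ran from 42040955 to 52951031 counts. As a check of the labels, the Y-linked genes Kdm5d, Uty, Ddx3y and Eif2s3y together gave 47.2, 45.1 and 20.4 CPM (counts scaled to 1 common library size) in the Y-KO libraries, in replicate order, against 296 to 344 CPM in Y-Scr. Libraries did not stand equally far apart. Over the 543 members with a mean of at least 4 CPM, the median absolute log2 difference was 0.11 between Y-KO replicates 1 and 2 and 0.08 between Y-Scr replicates 2 and 3, but 0.24 and 0.26 between Y-KO replicate 3 and the other Y-KO libraries, about as far as from Y-Scr (0.25 to 0.28). Ptprc, which encodes CD45, was measured at 134 to 298 CPM in Y-KO and 521 to 601 CPM in Y-Scr, although the cells were labelled as lacking it. The keratin genes Krt8 and Krt18, markers of the epithelial line, were at 886 CPM or more in every library, while Epcam, another epithelial marker, stayed under 5 CPM. In bulk RNA, fewer cells of a type and less RNA per cell cannot be told apart.

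Neighbouring genes can change together because a stretch of chromosome is gained or lost, because they lie in one regulatory domain, or because a tandem gene family serves one cell type. Mouse chromosome 6 holds examples of each kind of neighbourhood: the proto-oncogenes Met and Braf, the Hoxa cluster, an imprinted cluster near its proximal end, and families of lymphocyte and myeloid genes such as the Gimap GTPases and the C-type lectins. A ratio followed along position shows whether a difference belongs to a whole chromosome, to a segment or to scattered genes.

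Promoter stretches are shown for members whose levels the text turns on: 3 genes of amino acid and one-carbon metabolism that were higher in Y-KO, and Fgfr1op2 of a distal stretch that was lower. The sequences come from the RefSeq promoter table of GRCm38.p6, read 5′ to 3′ on the strand of the gene. Capitals mark 1 motif match in each, either the Atf4-type motif TGATGNAA (or its reverse complement) or the CCAAT box.
Asns: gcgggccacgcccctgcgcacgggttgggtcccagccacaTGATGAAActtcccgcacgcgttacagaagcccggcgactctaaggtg
Gars: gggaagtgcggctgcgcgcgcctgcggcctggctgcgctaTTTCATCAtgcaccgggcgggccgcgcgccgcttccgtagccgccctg
Mthfd2: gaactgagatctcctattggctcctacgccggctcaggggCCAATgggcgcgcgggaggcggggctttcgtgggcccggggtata
Fgfr1op2: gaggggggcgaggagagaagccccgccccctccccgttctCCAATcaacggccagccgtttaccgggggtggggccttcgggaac

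The Asns match begins at position -23 from the start site on the strand of the gene, and the Gars match at -30 on the other strand. The Mthfd2 match begins at -22, and a further CCAAT box, on the other strand at -47, lies in the same excerpt in lower case. A total of 608 members had a promoter in that table, with 790 promoters of 300 bases. The Atf4-type motif, searched on both strands, was in 3.17% of them and in 3.97% of the 32851 promoters of the whole table. It was in 3 of 50 promoters of members called higher in Y-KO (6.00%) and in 2 of 107 of members called lower (1.87%). The CCAAT box was in 35.3% of member promoters and 37.4% of all promoters. The E-box CACGTG stood at 5.82% against 7.15%, and an interferon-response-like motif (GAAA, 2 bases of any kind and GAAA) at 3.42% against 3.44%. None of these motifs contains another, and a match describes letters only.

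Scattered along the chromosome, 51 of the 906 members that could be tested were higher in Y-KO and 99 were lower (edgeR quasi-likelihood test with Benjamini-Hochberg adjustment over all 17837 genes tested, adjusted p under 0.05). The remaining 756 were not called. The 150 calls were 16.6% of the tested members, against 16.1% of all genes tested. The higher calls were 5.63% of members against 7.82% of all genes, and the lower calls 10.9% against 8.27%. In 122 members (13.5%) every Y-KO value lay above every Y-Scr value, against 17.5% of all genes, and in 205 members (22.6%) every Y-KO value lay below, against 20.3%. Large differences were mostly downward, as they were over all genes: 58 called members (6.40%) were more than 2-fold lower and 9 (0.993%) more than 2-fold higher, against 5.11% and 1.45% of all genes. With library size as the only scaling, 26 members (2.87%) were higher and 136 (15.01%) lower, against 4.09% and 12.6% of all genes, and the median log2 ratio of all tested genes moved from -0.05 to -0.19. Without Y-KO replicate 3, 128 (14.0%) were higher and 181 (19.7%) lower, against 16.0% and 17.7% of all genes.

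The chromosome as a whole was displaced by little. The log2 ratio used for position is the mean log2 CPM (prior count 2) of the Y-KO libraries less that of the Y-Scr libraries. Its median was -0.09 over the 921 members and -0.04 over 16445 genes of the other 18 autosomes that passed the same count criterion, a difference of -0.05. Against the Y-Scr mean, the Y-KO libraries stood at -0.04, -0.06 and -0.04 in this difference. In the Y-Scr libraries, each set against the other 2, it was -0.01, 0.01 and 0.01. All 3 Y-KO libraries were therefore lower than all 3 Y-Scr libraries, by a distance small beside the spread of single genes, whose middle 50% lay between -0.54 and 0.17. The other autosomes ran from -0.12 on chromosome 15 to 0.18 on chromosome 19, and chromosome 6 was the third lowest of 19. Among the 543 members with a mean of at least 4 CPM the median was -0.02, against 0.03 in 10455 such genes elsewhere. As a scale for these values, expression that follows gene dose in every cell would give -1 for 1 copy in place of 2, -0.585 for 2 in place of 3 and -0.415 for 3 in place of 4. No copy number was measured here.

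**Figure D1:**
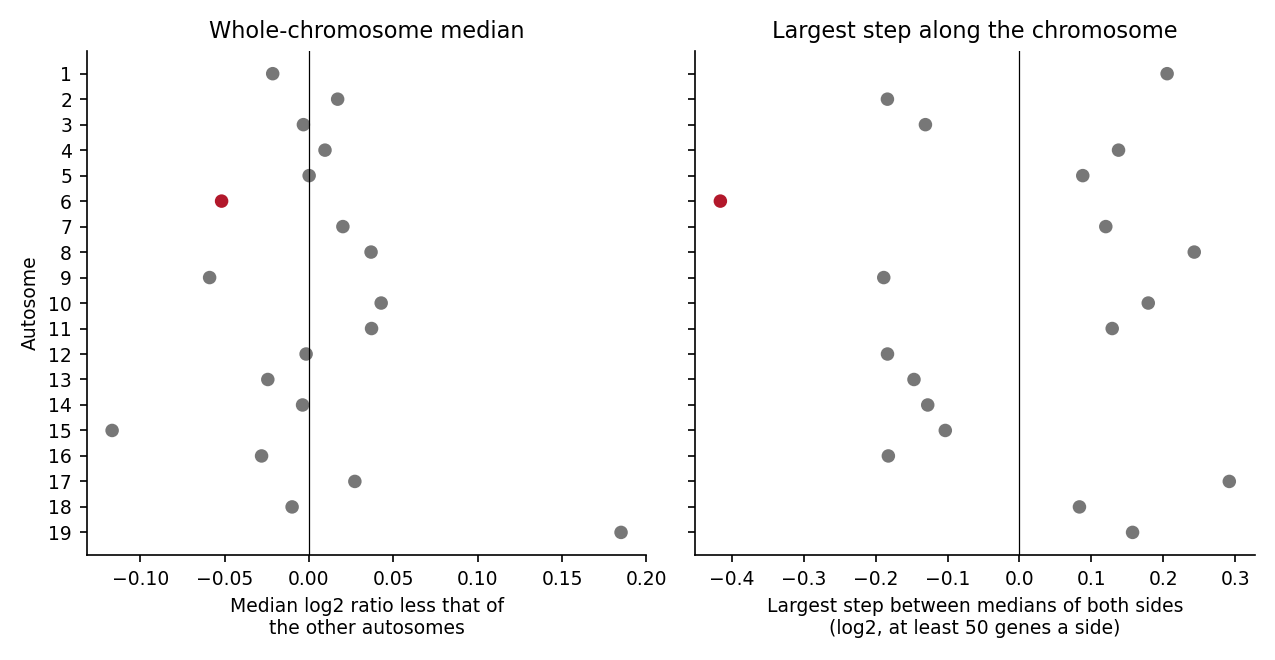
Each point is 1 autosome and chromosome 6 is red; the left panel gives the median log2 ratio of Y-KO over Y-Scr less that of all other autosomes, the right panel the largest signed step between the medians of both sides of any point with at least 50 genes on each side. Chromosome 6 lies at -0.05 on the left, inside the range of the others, and at -0.42 on the right, farther from 0 than any other autosome (-0.19 to 0.29).

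The distal end stood apart from the rest of the chromosome. Over all points with at least 50 members on each side, the largest step between the medians of both sides was -0.42, and it fell before Lrmp (chromosome 6, 145061379, GRCm39), with 54 members after it. The largest steps of the other autosomes lay between -0.19 and 0.29. The step was -0.63 without Y-KO replicate 3 and -0.16 among the members with at least 4 CPM, where the 50 genes required on each side reach far beyond this end. Over the whole chromosome, the Pearson r between the log2 ratios of adjacent members was 0.13, within the 0.03 to 0.45 of the other autosomes. This r is across genes, which are not replicates and in part share reads.

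In windows of 5 Mb, 25 of the 30 occupied windows held at least 10 members, and the other 5 were not read. The middle range of the other autosomes, the 5th to the 95th percentile of 409 windows with at least 10 genes, ran from -0.32 to 0.14, and 22 of the 25 chromosome 6 windows lay inside it. The 3 outside were all low. The window from 145 to 150 Mb was the lowest at -0.49 over 54 members, and 3 of the 409 windows elsewhere were lower still. In it 0 members were called higher and 12 of 52 lower, against 7.82% and 8.27% of all genes tested. By replicate, its Y-KO medians were -0.59, -0.57 and -0.41, and its Y-Scr medians -0.06, 0.04 and 0.06. Every Y-KO library was thus well below every Y-Scr library in this window, and it stayed outside the range in each setting that kept these window bounds. With windows of 10 Mb the last one was outside, and with windows shifted by 2.5 Mb the one from 142.5 to 147.5 Mb. Among members of at least 4 CPM its median was -0.42 over 27 members, below all 331 windows of the other autosomes (lowest -0.41). At that level 4 windows of chromosome 6 were outside, and the one from 135 to 140 Mb was high (0.20). With means in place of medians, the window from 95 to 100 Mb was high (0.10).

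The window from 0 to 5 Mb had a median of -0.35 over 11 members, with -0.29, -0.09 and -0.67 in Y-KO replicates 1, 2 and 3. It was inside the range without Y-KO replicate 3 and with means in place of medians. Its members with the smallest p were Samd9l, an interferon-linked growth regulator (61.5, 58.1 and 57.9 CPM in Y-KO against 76.6, 84.1 and 79.2 CPM in Y-Scr), the G protein subunit gene Gng11 (0.313 ± 0.169 against 1.48 ± 0.514 CPM, SD, n = 3), Hepacam2 and the collagen gene Col1a2. Samd9l and Gng11 were called lower, with edgeR adjusted p of 0.0107 and 0.0377, while Hepacam2 (log2 fold change -1.65) and Col1a2 (0.56) were not. The window from 40 to 45 Mb had a median of -0.35 over 25 members, with -0.21, -0.22 and -0.38 in the Y-KO libraries, and only 9 of its members reached 4 CPM. Its called members were the trypsinogen gene Prss2, the focal adhesion gene Zyx (217 ± 27.8 against 291 ± 13.5 CPM) and the ephrin receptor gene Ephb6 (36.3 ± 13.9 against 68.2 ± 4.69 CPM). In both windows the calls hung on single libraries. Leaving out Y-Scr replicate 2 or 3 ended that of Samd9l (0.0845 and 0.0637). Those of Gng11, Prss2 and Zyx were lost without Y-KO replicate 1 or any Y-Scr library, and that of Ephb6 also without Y-KO replicate 2 (adjusted p from 0.0598 to 0.152).

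**Figure D2:**
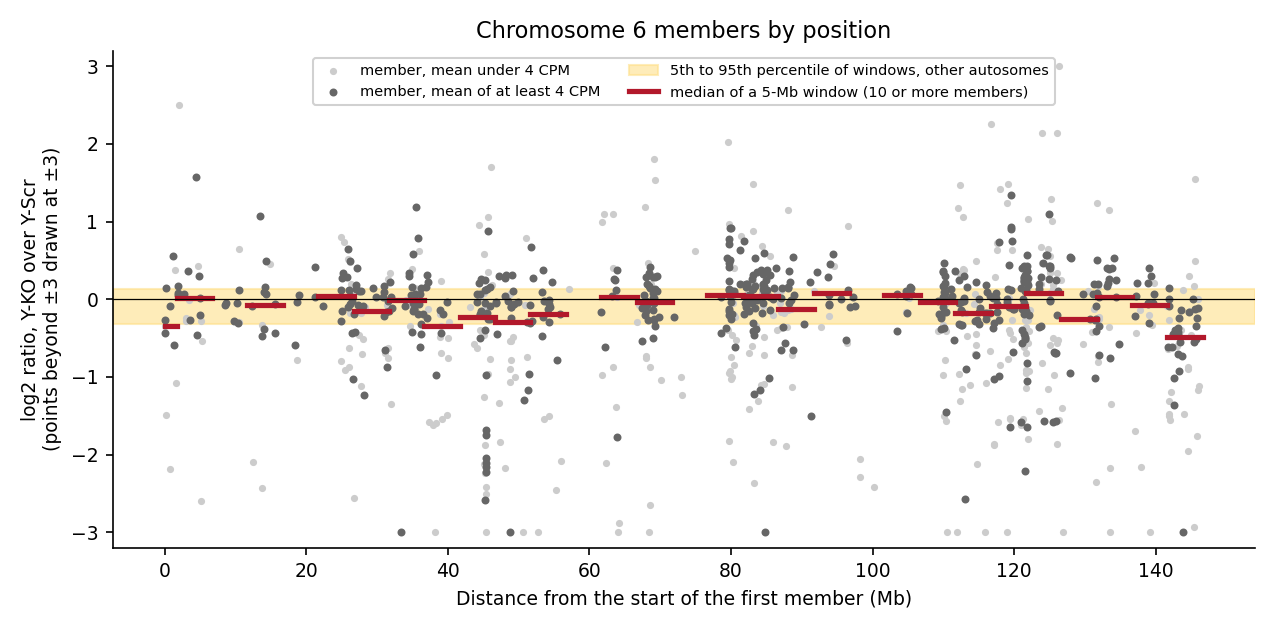
Each point is 1 member, placed by its distance in Mb from the start of the first member and by its log2 ratio of Y-KO over Y-Scr (dark, mean of at least 4 CPM); red bars are medians of 5-Mb windows with at least 10 members, and the yellow band is the 5th to 95th percentile of such windows on the other autosomes. Most bars lie in the band, and the last bar, at -0.49, is the lowest.

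**Figure D3:**
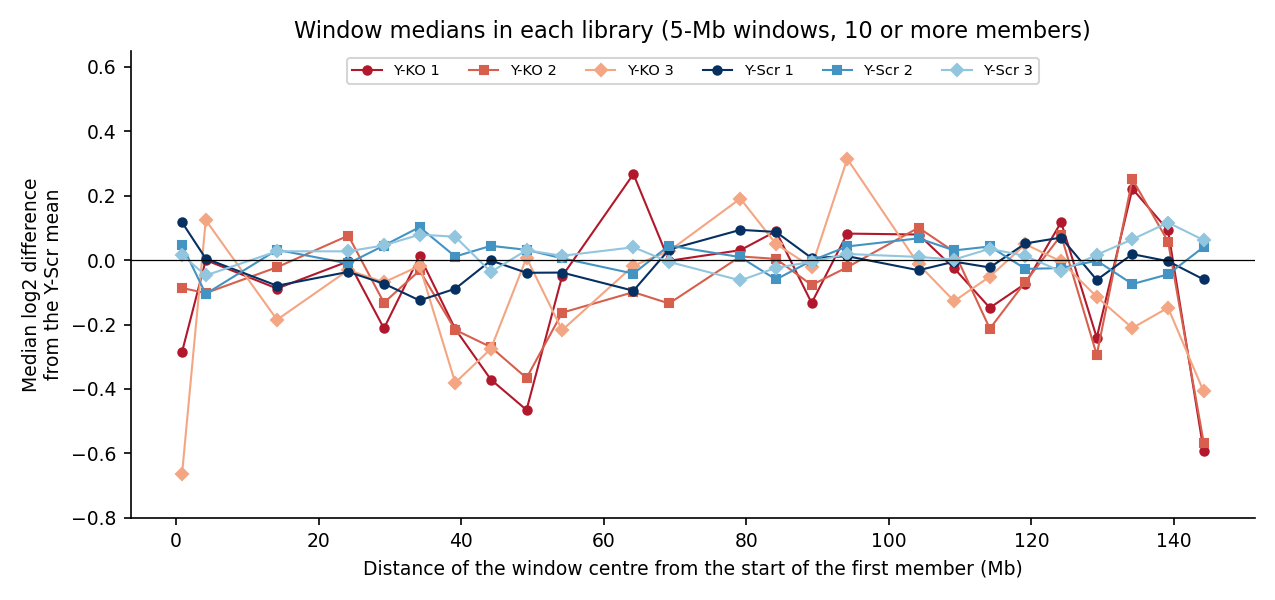
Lines give, for each library, the median log2 difference from the Y-Scr mean over the members of each 5-Mb window, against the distance of the window centre from the first member; each Y-Scr library is set against the mean of the other Y-Scr libraries. In the last window the 3 Y-KO libraries lie between -0.59 and -0.41 and the Y-Scr libraries between -0.06 and 0.06, while in the first window Y-KO replicates 1, 2 and 3 spread from -0.67 to -0.09.

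Among members of at least 4 CPM, the low values of the last window were concentrated in a stretch of 1.29 Mb. It ran from Sspn to Pthlh (chromosome 6, 145877367 to 147165681, GRCm39). It was picked after its values were seen, as the longest run on any autosome of adjacent genes with at least 4 CPM whose 3 Y-KO values all lie below the 3 Y-Scr values, so its direction is given by the choice and the tests of its genes add no support. The run held 13 members, against 10 for the next longest, on chromosome 14 from Mcpt1 to Gzmb, and 8 for the Gimap genes on chromosome 6. The longest run in the other direction held 11 genes, on chromosome 7 from Ipo7 to Usp47. With genes under 4 CPM kept in, the stretch was broken up by such genes, and the longest runs were 12 genes at the Gimap locus and 12 on chromosome 14. Over its 13 members of at least 4 CPM the median log2 ratio was -0.55, and -0.50 without Pthlh. By replicate, the Y-KO medians were -0.71, -0.63 and -0.43, with Y-Scr between -0.03 and 0.04. Without Y-KO replicate 3 the median of the 13 was -0.67. With the 4 members under 4 CPM that lie in the stretch, its median over all 17 was -0.47. The other 37 members of the window were no higher, at -0.52. Of the 12 lower calls of the window, 10 were in the stretch, and 2 were among the 35 tested members outside it.

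The members of the stretch have unrelated roles. Fgfr1op2, named for a fusion with a growth factor receptor gene, stood at 103, 109 and 113 CPM in Y-KO and 174, 175 and 179 CPM in Y-Scr. The groups were far apart beside their spread, and edgeR gave a log2 fold change of -0.70 with an SE of 0.08 and an adjusted p of 0.000871. Stk38l, a kinase gene of the NDR family, was at 17.8, 19.3 and 19.5 CPM against 36.8, 37.0 and 33.4 CPM. Klhl42, which encodes a substrate adaptor of a ubiquitin ligase, was at 26.5, 31.1 and 32.5 CPM against 44.0, 51.0 and 54.6 CPM. These 3 genes were similarly low in all Y-KO libraries, replicate 3 included.

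Sspn, a member of the dystrophin complex, stood at 18.01, 17.33 and 30.24 CPM in Y-KO and 41.98, 42.34 and 43.61 CPM in Y-Scr, so that Y-KO replicate 3 was nearer to the control. The noncoding gene model Gm32914 had the same order, with 4.87, 4.96 and 13.1 CPM against 17.0 to 18.6 CPM. Ppfibp1, a liprin scaffold gene, was at 119, 125 and 156 CPM against 177, 205 and 201 CPM. Smaller differences were measured in Itpr2, a calcium release channel of the endoplasmic reticulum (log2 ratio -0.40), Ints13, an Integrator subunit (-0.36), Tm7sf3 (-0.46) and Med21, a Mediator subunit (-0.42). Arntl2, a clock transcription factor, and Mrps35, of the mitochondrial ribosome, had ratios of -0.25 and -0.14 and, with Gm32914, were not called by edgeR, while the other 10 were. Fgfr1op2 overlaps Ints13, and Tm7sf3 overlaps Med21, on the opposite strand, and counting was not stated to use strand, so the values of these pairs are uncertain. Pthlh, which encodes parathyroid hormone-like hormone, fell furthest, from 42.7, 43.4 and 42.7 CPM in Y-Scr to 0.660, 1.67 and 3.50 CPM in Y-KO.

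Calls in the stretch differed in how far they depended on single libraries. The calls of Pthlh and Stk38l were kept in each of the settings run, and those of Fgfr1op2 and Klhl42 were lost only when each close pair of libraries was summed (edgeR adjusted p = 0.0526 and 0.102). Leaving out 1 library, whichever it was except Y-KO replicate 3, ended the calls of Itpr2, Ints13 and Med21 (adjusted p from 0.0642 to 0.183). Those of Tm7sf3 and Ppfibp1 ended on leaving out Y-KO replicate 1 or 2 or either close Y-Scr library (0.0562 to 0.103), and that of Sspn without Y-KO replicate 1 or any Y-Scr library (0.055 to 0.0824).

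On both sides the run ended among members of at least 4 CPM, with 2 of the next 8 separated in the same direction on each side. With members under 4 CPM kept in, a run of 5 separated lower members went on from Pthlh to Far2os1 (chromosome 6, 147153599 to 148084256), at a median ratio of -1.48. Of the 8 members of at least 4 CPM before Sspn, 1 was called, the Ras-association gene Rassf8 (28.0 ± 1.97 against 43.0 ± 2.77 CPM, SD, n = 3; edgeR log2 fold change -0.62 with SE 0.10, adjusted p = 0.00566). The median ratio of the 8 was -0.07. Bhlhe41, a clock repressor gene directly before Sspn, was at 86.0, 87.9 and 217 CPM against 156 to 165 CPM, so that Y-KO replicate 3 lay above Y-Scr and the other Y-KO libraries below. With Y-KO replicate 3 left out, edgeR called Bhlhe41 lower (-0.88 on the log2 scale, adjusted p = 1.08e-07). The Rassf8 call was lost without Y-Scr replicate 2 (adjusted p = 0.0503). Of the 8 members after Pthlh, 0 were called by edgeR or DESeq2, 3 had an unadjusted p under 0.05, and 4 were called lower without Y-KO replicate 3. Their median was -0.20, from Ipo8 at 0.00 to a lowest value of -0.55. Ccdc91, next to Pthlh but under 4 CPM, was called lower (1.61 ± 0.629 against 4.39 ± 0.891 CPM), a call lost without Y-KO replicate 2 or any Y-Scr library (adjusted p from 0.0601 to 0.116). The last window without the stretch had a median of -0.20 over 14 members of at least 4 CPM, and -0.52 over all 37 members. The drop at low counts is not particular to this end: members under 4 CPM had a median of -0.41 over the whole chromosome, and such genes on the other autosomes -0.40.

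**Figure D4:**
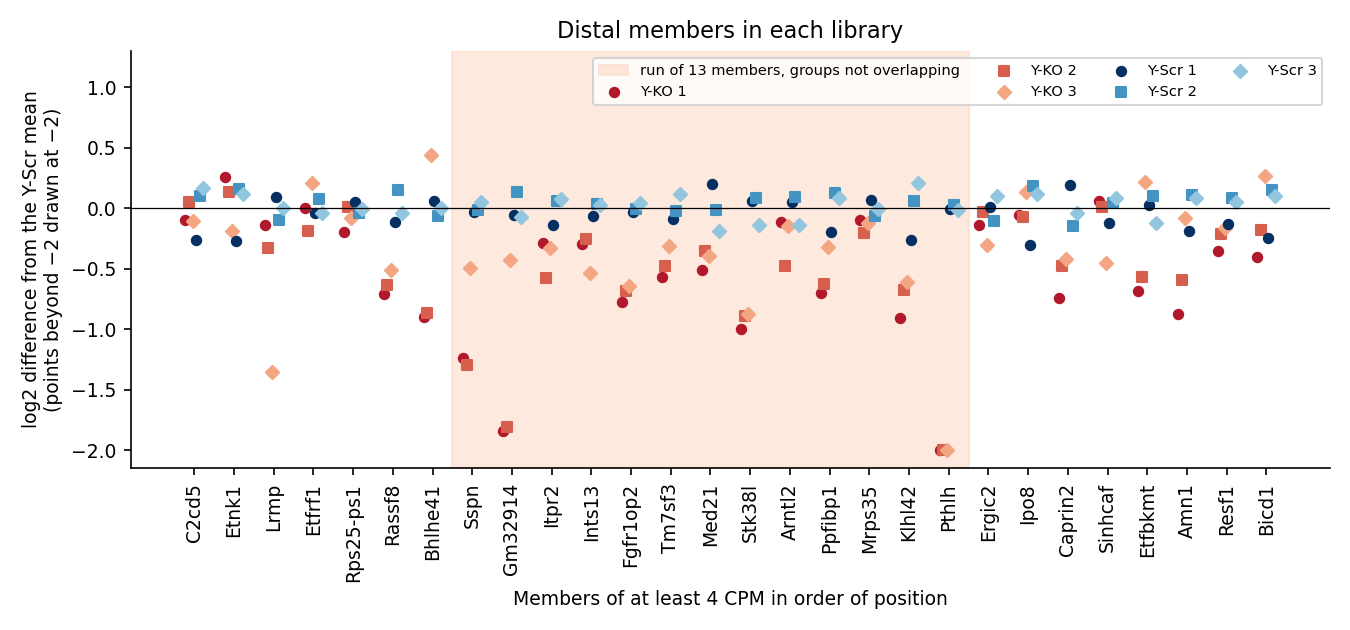
Points give the log2 difference of each library from the Y-Scr mean (Y-Scr libraries against the mean of the other Y-Scr libraries) for members of at least 4 CPM in order of position, 7 of the 8 before the stretch, the 13 of the stretch (shaded) and 8 after it. In the shaded genes all Y-KO points lie below all Y-Scr points, which is how the stretch was chosen; Bhlhe41 shows Y-KO replicate 3 above and the other Y-KO libraries below, and Ipo8 shows overlapping groups.

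Between 40 and 60 Mb, bounds drawn after the window values were seen, 4 windows in a row had low medians, of which only the first lay outside the range of the other autosomes. With windows of 10 Mb both windows of the region were outside, at -0.26 and -0.24 against a 5th percentile of -0.23. The 135 members had a median ratio of -0.26, with -0.32, -0.27 and -0.22 in Y-KO replicates 1, 2 and 3, and 26 of the 134 tested (19.4%) were called lower and 4 (2.99%) higher, against 8.27% and 7.82% of all genes. In this region lies the Gimap cluster, GTPase genes of lymphocyte survival, within 0.124 Mb (chromosome 6, 48624168 to 48747785). All 9 Gimap members were called lower, with a median ratio of -2.05. Gimap4 stood at 31.9, 32.1 and 20.9 CPM in Y-KO and 128, 124 and 121 CPM in Y-Scr (log2 fold change -2.14 by edgeR, SE 0.16, adjusted p = 0.000153). Gimap3 and Gimap8 fell 4.27-fold and 6.01-fold. The genes resemble each other, so reads that match several of them were left uncertain by the counting. Without the Gimap genes the median of the region was -0.20, and 17 of 125 tested members were called lower and 4 higher. Among members of at least 4 CPM, Gimap genes included, the median was -0.10.

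The Gimap values moved with those of T and NK cell markers on all chromosomes. The mean log2 CPM of 20 such markers, 4 of them on chromosome 6, came to 4.15, 4.12 and 3.40 in the Y-KO libraries and 5.74 to 5.89 in Y-Scr, and 17 of the 20 were called lower. Their part in the region's ratio was not tested. Of 22 lymphocyte genes among the members, 12 were called lower, 0 higher and 10 not, against 8.27% lower and 7.82% higher over all genes tested. Their median log2 fold change was -1.23 against -0.08 over all members. Both values largely repeat the Gimap cluster: apart from Gimap genes, only Cd4, Cd27, Clec2i and Cd69 were called lower. Cd4, the T helper co-receptor gene, fell from 28.8 ± 0.534 to 6.26 ± 0.826 CPM (SD, n = 3). Cd27, a costimulatory receptor gene of the TNF receptor family, fell 3.07-fold. Cd8a was at 41.6, 44.9 and 25.7 CPM in Y-KO and 28.0 to 31.0 CPM in Y-Scr, with overlapping groups. Without Y-KO replicate 3 it was called higher (adjusted p = 0.000644).

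Some myeloid genes on the chromosome went the other way, but most were not called. Of 26 members listed as myeloid, 4 were called higher, 3 lower and 19 not, against 7.82% higher and 8.27% lower over all genes tested. The 3 lower were Cd207, Gata2 and Ret, and Ret was also listed with the growth signalling genes. Their median log2 fold change was 0.10. Those not called included the lectin receptor genes Clec4a2, Clec4b1, Clec4b2, Clec4n, Clec4d, Clec4e and Clec7a. C3ar1, the receptor gene for complement C3a, stood at 75.1, 85.3 and 23.1 CPM in Y-KO and 20.8, 20.9 and 21.0 CPM in Y-Scr. Clec4a1 and Clec4a3, lectin receptor genes of macrophages and dendritic cells, were 1.94-fold and 1.99-fold higher, also through Y-KO replicates 1 and 2. Tbxas1, thromboxane synthase, which was not in the list, had the same order as C3ar1 (21.6, 28.2 and 9.58 against 6.76 to 8.66 CPM). The calls of C3ar1, Clec4a1, Clec4a3 and Tbxas1 ended on leaving out 1 library, whichever it was except Y-KO replicate 3, at adjusted p from 0.0661 to 0.122. Apobec1, an RNA-editing deaminase gene, was instead at its highest in Y-KO replicate 3, with 87.8, 91.4 and 111 CPM against 67.8 to 73.2 CPM. Its call was lost without any of the Y-Scr libraries (adjusted p from 0.073 to 0.118) and with library size as the only scaling (0.0875). The mean log2 CPM of 20 macrophage and monocyte markers, 1 of them on chromosome 6, was 6.13, 6.16 and 5.41 in Y-KO and 5.36 to 5.40 in Y-Scr. These values moved with C3ar1, and the part of the markers was not tested.

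Gata2, a transcription factor of blood progenitors and mast cells listed with the myeloid genes, was the member with the largest fall among named genes. It stood at 0.454, 0.361 and 0.545 CPM in Y-KO and 24.3, 27.3 and 23.2 CPM in Y-Scr. The fitted fall was 54.6-fold, or -5.77 on the log2 scale with an SE of 0.20 (edgeR adjusted p = 2.66e-06). The groups were apart in all libraries.

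Of 24 tested genes of fibroblasts, endothelium and matrix, 10 were called lower, 2 higher (Aqp1 and Tspan9) and 12 not. Over all genes tested, 8.27% were lower and 7.82% higher. Those not called included Col1a2, Cav1, Cald1, Fbln2, Mfap5 and Vwf. Ptn, a secreted heparin-binding growth factor, stood at 1.90, 1.58 and 7.85 CPM in Y-KO and 75.2, 77.8 and 78.5 CPM in Y-Scr. Mgp, an inhibitor of calcification, fell 15.3-fold and Podxl, a sialomucin, 2.31-fold. The Podxl call ended only with the close pairs summed (edgeR adjusted p = 0.0552). The classical complement protease genes C1s1 and C1s2 fell 1.46-fold and 2.72-fold, and Tspan12, a tetraspanin of Norrin signalling, 1.51-fold. The calls of C1s1, C1s2 and Tspan12 were each lost without any of the Y-Scr libraries (adjusted p from 0.054 to 0.134), that of C1s1 also without Y-KO replicate 1 or 2 (0.057 and 0.0547) and that of C1s2 without Y-KO replicate 2 (0.0517). The mean log2 CPM of 19 fibroblast markers was 3.10, 3.40 and 4.27 in Y-KO and 4.70 to 4.75 in Y-Scr, with 7 called lower and 0 higher. That of 11 endothelial markers did not fall, at 0.99, 0.94 and 1.20 in Y-KO and 0.85 to 1.37 in Y-Scr, with 2 called higher and 0 lower. Both marker lists included 2 markers on chromosome 6, and the part of either list in these values was not tested. The largest falls of other members past the rule for named genes were Halr1, a noncoding RNA at the Hoxa locus, Abcg2, a drug efflux transporter gene, and Chl1, a cell adhesion gene, at 10.1-fold, 5.65-fold and 5.17-fold. The Halr1 call was lost without Y-KO replicate 2 or any Y-Scr library (adjusted p from 0.114 to 0.145), with the close pairs summed (0.155) and by DESeq2 (0.158). That of Chl1 ended only with the close pairs summed (edgeR adjusted p = 0.0574). Of the 9 Hoxa members, 0 were called by edgeR or DESeq2 and 0 had an unadjusted p under 0.05, with a median log2 fold change of -0.37. Without Y-KO replicate 3, Hoxa7 and Hoxa10 were called lower (adjusted p = 0.0334 and 0.0105). Hoxa10 stood at 16.2, 17.4 and 25.1 CPM against 21.3 to 24.5 CPM.

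Some metabolic genes rose, but most were not called. Of 23 members of carbohydrate and amino acid metabolism, 5 were called higher, 2 lower and 16 not, with a median log2 fold change of -0.02. Over all genes tested, 7.82% were higher and 8.27% lower. Asns, asparagine synthetase, whose promoter is printed above, stood at 208, 192 and 145 CPM in Y-KO and 64.1, 56.6 and 59.7 CPM in Y-Scr. All Y-KO libraries were more than 2-fold above all Y-Scr libraries (edgeR log2 fold change 1.59 ± 0.13 SE, adjusted p = 0.000246), and the call was kept in every setting run. Mthfd2, the mitochondrial folate enzyme, was at 105, 99.5 and 66.4 CPM against 45.8, 47.1 and 47.7 CPM (edgeR log2 fold change 0.95 ± 0.16 SE, adjusted p = 0.0062). Gars, glycyl-tRNA synthetase, which was not in a list and was chosen after its values were seen, was at 297, 298 and 221 CPM against 176, 164 and 168 CPM. The 3 genes lie far apart, at 7.68, 55.0 and 83.3 Mb, and each was lower in Y-KO replicate 3 than in the other Y-KO libraries. With the close pairs summed, the calls of Mthfd2 and Gars ended (adjusted p = 0.116 and 0.147).

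Glycolytic genes differed in direction. Gapdh, the glycolytic dehydrogenase and the member with the highest count, stood at 4336, 4394 and 4328 CPM in Y-KO and 3203, 2794 and 2818 CPM in Y-Scr, 1.48-fold higher, a call that ended with the close pairs summed (adjusted p = 0.0798). Tpi1, triose phosphate isomerase, was 1.34-fold higher, which missed the threshold on leaving out Y-Scr replicate 2 (adjusted p = 0.0517) or 3 (0.0505). The glucose transporter gene Slc2a3 fell 2.99-fold, from 54.7, 58.3 and 62.8 CPM in Y-Scr to 20.2, 25.9 and 12.6 CPM in Y-KO. Of 15 genes of the respiratory chain and the mitochondrial ribosome, Mrps25 and Mrpl51 were called higher, by 1.47-fold and 1.28-fold, and 0 were lower. The shares over all genes were 7.82% and 8.27%. The call of Mrps25 ended on leaving out Y-KO replicate 1 or either close Y-Scr library, 2 or 3 (adjusted p from 0.0533 to 0.076). That of Mrpl51 was lost without any of these or Y-KO replicate 2 (0.0612 to 0.143) and with library size as the only scaling (0.141).

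**Figure D5:**
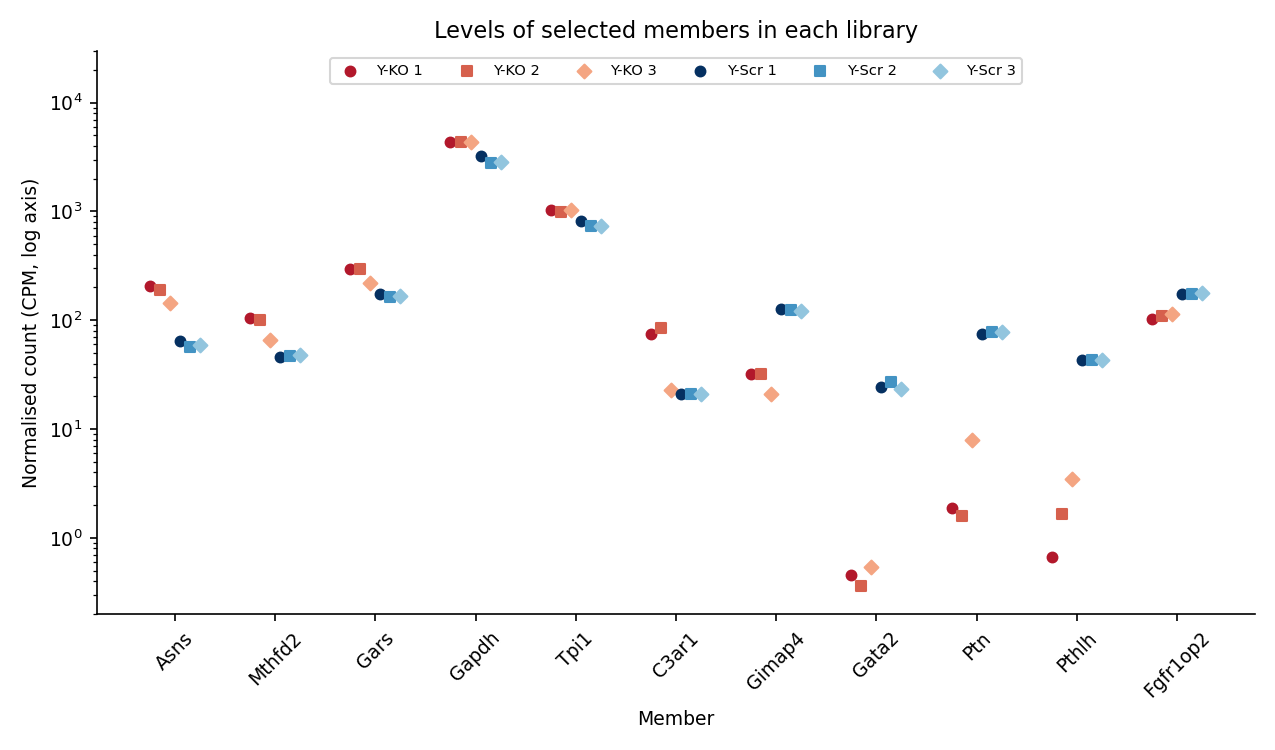
Points give the level in CPM, on a log axis, of 11 members in each of the 6 libraries. Asns, Mthfd2, Gars, Gapdh and Tpi1 lie higher in all Y-KO libraries, Gimap4, Gata2, Ptn, Pthlh and Fgfr1op2 lie lower, and C3ar1 is high in Y-KO replicates 1 and 2 and 23.1 CPM in replicate 3.

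Growth signalling genes did not move as a group. Of 20 members, 2 were called higher, 5 lower and 13 not, against 7.82% higher and 8.27% lower over all genes. Their median log2 fold change was -0.09. Braf, a kinase of the Ras pathway, was at 21.5, 20.5 and 20.3 CPM in Y-KO and 25.4, 30.4 and 29.4 CPM in Y-Scr, a call that ended on leaving out Y-KO replicate 1 or 2 or either close Y-Scr library, 2 or 3 (adjusted p from 0.069 to 0.159). The receptor tyrosine kinase gene Ret fell 4.06-fold at a low level (0.703 ± 0.434 against 2.86 ± 0.451 CPM), a call lost without Y-KO replicate 1 or any Y-Scr library (0.0697 to 0.0903). Tead4, a transcription factor of the Hippo pathway, was at 13.1, 11.8 and 9.49 CPM against 5.10 to 5.48 CPM, 2.16-fold higher. Its call ended only with the close pairs summed (edgeR adjusted p = 0.0881). Met, the receptor for hepatocyte growth factor, was at 316, 309 and 343 CPM against 257, 299 and 310 CPM, with overlapping groups.

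Of 16 genes of the cell cycle, replication and repair, 0 were called by edgeR, against 16.1% of all genes tested. DESeq2 called 3, and 6 had an unadjusted edgeR p under 0.05. Their median log2 fold change was 0.19. Without Y-KO replicate 3, 6 were called higher and 2 lower. The smallest p were those of Cdkn1b, an inhibitor of cyclin-dependent kinases (88.0 ± 13.9 against 116 ± 5.27 CPM, SD, n = 3; edgeR adjusted p = 0.0541), and Foxm1, a mitotic transcription factor (83.7 ± 11.1 against 63.4 ± 6.25 CPM; adjusted p = 0.0583). DESeq2 called both, at an adjusted p of 0.036 and 0.0345, and edgeR did so without Y-KO replicate 3 (4.56e-05 and 0.000358). Of 15 chromatin regulators, Hdac11 was called lower at a low level (0.425 ± 0.186 against 1.60 ± 0.160 CPM) and 0 were higher. The Hdac11 call was lost without Y-KO replicate 2 or any Y-Scr library (adjusted p from 0.0581 to 0.131). Ezh2, the Polycomb methyltransferase gene, was at 59.9 to 70.1 CPM against 61.0 to 63.0 CPM.

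Of 15 interferon-linked members, 3 were called higher, 2 lower and 10 not, against 7.82% higher and 8.27% lower over all genes. Usp18, a protease that removes the ubiquitin-like protein ISG15, stood at 27.1, 28.5 and 26.0 CPM in Y-KO and 16.0, 16.5 and 16.3 CPM in Y-Scr. Parp12, an antiviral ADP-ribosyltransferase gene, was 1.74-fold higher, while Samd9l and Herc3 fell. The calls of Usp18 and Parp12 ended only with the close pairs summed (edgeR adjusted p = 0.0767 and 0.0994). Of 8 imprinted members near the proximal end and elsewhere, Asb4 was called higher at a very low level (0.962 ± 0.208 against 0.141 ± 0.0726 CPM) and Herc3 lower, with a median log2 fold change of 0.10 over the 8. The Asb4 call was lost without Y-KO replicate 1 or any Y-Scr library (adjusted p from 0.0581 to 0.108), and the Herc3 call without Y-Scr replicate 2 or 3 (0.088 and 0.0589). Among the largest rises were also M1ap, a meiosis gene, and Hebp1, a heme-binding protein gene, at 4.14-fold and 2.41-fold, both at under 8 CPM. The Hebp1 call was lost without Y-KO replicate 2 or any Y-Scr library (adjusted p from 0.0501 to 0.082). In a run of 4 adjacent members, from Dok1 to Aup1 (chromosome 6, 83007915 to 83034789), all Y-KO values lay above the Y-Scr values of the same gene. Dok1, an adaptor of receptor kinases picked after its values were seen, stood at 129, 134 and 211 CPM against 86.2 to 99.8 CPM, a call lost without any of the Y-Scr libraries (adjusted p from 0.079 to 0.125), with library size as the only scaling (0.0568), with the close pairs summed (0.126) and with a replicate block (0.0503). Tmsb10 and Hnrnpa2b1, with Gapdh the members with the highest counts, had log2 fold changes of 0.29 and 0.28 and no call (edgeR adjusted p = 0.0555 and 0.0590). Both were called higher without Y-KO replicate 3 (0.00113 and 2.96e-05).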

How the data were processed

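Bulk poly-A RNA of 3 Y-KO and 3 Y-Scr samples was measured. The deposited table holds unnormalised read counts, which the authors made with featureCounts 1.5.3 on GRCm39, per the file headers. Strand use is not given in the sources used here, so genes that overlap (456 members) or resemble each other are uncertain. The submitters' processing notes name FastQC 0.12.1, MultiQC 1.13, Trimmomatic 0.39 and STAR 2.5.2b. Symbols were matched by gene ID to an older annotation (51880 IDs, 90.7%), and coordinates are those of the deposited table.

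All genes were fitted with edgeR 4.0.16 in R 4.3.3 (filterByExpr, TMM scaling, quasi-likelihood test, group as the only term), with Benjamini-Hochberg adjustment over 17837 genes. CPM are counts scaled to 1 common library size by TMM. Position used log2 CPM with a prior count of 2. The fit and the position steps were tested on simulated data. Members and gene lists were chosen with earlier results of these data known. Named genes are the 8 largest folds in each direction among called members with no overlap between groups and at least 2 CPM in the higher group, up to 4 members with the smallest p in each list and each outlying window, and the 3 highest counts. Gars, Mthfd2, Apobec1, Cd8a, Met, Ezh2, Dok1, Bhlhe41, Ipo8, Ccdc91 and the members of the stretch outside this rule were chosen after their values were seen. Results on a few genes are not reported here. Alternatives were DESeq2 1.42.0, a replicate block, other scalings, filters and prior counts, other windows, the mean in place of the median, and leaving out each library. Sums of the close libraries were also tried. Their use for the position results, and every setting for the stretch from Sspn to Pthlh, were chosen after seeing the data. Figures used matplotlib 3.10.9.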

Additional observations from a re-analysis of the deposited data

How the results depend on the processing

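Counts of calls depended on the libraries. The 51 higher members became 26 with library size as the only scaling (2.87%, against 4.09% of all genes). With the close pairs summed, 4 were higher (0.435%) and 23, in place of 99, lower (2.5%), against 0.7% and 1.85% of all genes. Leaving out 1 library gave 14 to 128 higher and 37 to 181 lower, with the top of both ranges without Y-KO replicate 3. Over all genes, the shares then ran from 2.45% to 16.0% higher and from 3.01% to 17.7% lower. DESeq2 gave 61 higher (6.62%) and 117 lower (12.7%), against 7.55% and 8.77% of all genes. With the replicate number as a block, 31 of 906 members were higher and 71 lower, against 5.30% and 6.28% of all genes. Same-numbered libraries showed no shared deviation (r from -0.01 to 0.00). This does not settle whether the numbers pair the samples, which the labels do not state. The chromosome median against the other autosomes kept its sign, from -0.0578 to -0.0405 on leaving out 1 library and -0.0691 with means. The largest step ran from -0.63 to -0.33 on leaving out 1 library and was -0.16 at 4 CPM or more. Windows outside the range numbered 2 to 4 over the settings, and not all were low in each. The median of the stretch from Sspn to Pthlh ran from -0.67 to -0.48 on leaving out 1 library, and its mean was -0.93. Over 85 named genes and 1020 gene and setting pairs, 803 kept their call or lack of one, 172 lost a call and 45 gained one. The sign changed in 0 of the 53 called genes and in 2 of the 32 uncalled ones (Etfrf1 in 2 settings, Ipo8 in 7). Depth limits genes of a few counts, and 378 members lay under 4 CPM.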
